A study of Homo sapiens with 6 samples.

Results

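The mitochondrial genome transcripts described here are the genes whose deposited position lies on the mitochondrial chromosome. There were 15 of them among 30947 genes in all, namely 13 messenger RNAs and 2 ribosomal RNAs (rRNAs), and all 15 passed the filter on low counts. The 22 mitochondrial transfer RNAs (tRNAs) in GENCODE release 29 were not analysed here. RNA sequencing was done on total RNA of Cal27, a human oral squamous carcinoma line, in 3 control libraries and 3 libraries with lentiviral knockdown of DAZAP1, which binds RNA and belongs to the hnRNP proteins. The labels call the control an empty vector in one place and a negative control sequence in another, and they do not name the hairpin used. Whether the libraries of a group came from separate cultures is not stated, so the p-values speak only of library-to-library spread, which may be technical.

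Both strands of the human mitochondrial genome are transcribed as long precursors that carry several genes each. Most messenger RNAs and rRNAs are flanked by tRNAs, and cutting the tRNAs out of the precursor frees the RNAs between them. The 13 proteins are subunits of respiratory complexes I, III, IV and V, and the 12S rRNA (MT-RNR1) and 16S rRNA (MT-RNR2) form the cores of the small and large subunits of the mitochondrial ribosome. Of the 15 genes, 14 lie on the plus strand of the reference, and MT-ND6 alone lies on the minus strand. How RNA was selected for the libraries and whether counting used strand are not stated in the labels, so reads of MT-ND6 and of RNA antisense to it cannot be told apart.

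The stretches below show the gene borders that the comparisons of neighbours turn on, from GENCODE release 29 transcripts (GRCh38, plus strand, 5′ to 3′). The first pair shows how the 12S rRNA is set between tRNAs. In MT-TF/MT-RNR1 (chrM:577-687) the capitals mark the tRNA for phenylalanine, followed by the start of the 12S rRNA, and in MT-RNR1/MT-TV/MT-RNR2 (chrM:1562-1710) they mark the tRNA for valine between the end of the 12S and the start of the 16S rRNA. The other 3 show messenger RNAs that meet with no tRNA between them, with capitals for the first 3 bases of the downstream gene: MT-ATP8/MT-ATP6 (chrM:8515-8584), MT-ATP6/MT-CO3 (chrM:9183-9231) and MT-ND4L/MT-ND4 (chrM:10736-10790).
MT-TF/MT-RNR1: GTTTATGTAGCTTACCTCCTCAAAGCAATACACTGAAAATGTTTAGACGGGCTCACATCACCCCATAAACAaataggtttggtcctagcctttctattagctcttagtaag
MT-RNR1/MT-TV/MT-RNR2: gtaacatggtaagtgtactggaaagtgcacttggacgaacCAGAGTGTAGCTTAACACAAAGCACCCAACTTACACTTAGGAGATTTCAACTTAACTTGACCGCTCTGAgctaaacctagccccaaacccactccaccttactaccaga
MT-ATP8/MT-ATP6: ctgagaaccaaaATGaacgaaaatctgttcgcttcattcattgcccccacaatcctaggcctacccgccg
MT-ATP6/MT-CO3: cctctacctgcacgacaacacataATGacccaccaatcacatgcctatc
MT-ND4L/MT-ND4: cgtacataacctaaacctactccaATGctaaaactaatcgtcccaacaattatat

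The libraries held 16333542 to 18955230 counts. DAZAP1 was at 256.9 to 277.9 CPM (counts scaled to library totals with TMM factors) in control cells and 67.5 to 77.8 CPM in knockdown cells, a log2 fold change of −1.86 (adjusted p = 1.67e-39, edgeR quasi-likelihood test with Benjamini-Hochberg adjustment over all genes tested), in the direction its labels give. Keratinocyte markers, 8 in all, summed to 3659 to 3803 CPM in control cells and 4251 to 4315 CPM in knockdown cells. They did not move as 1, with 5 called higher and 2 lower, where 26.9% and 27.4% of all genes tested were. Mean KRT5 was 1506 CPM in control cells and 2147 CPM in knockdown cells, and mean SFN 848 and 441 CPM. Leukocyte markers summed to 0.695 to 1.58 and 2.18 to 2.94 CPM, mostly from CD14, with PTPRC at 0 to 2 counts per library. CD14 was at 0.588 to 1.20 CPM in control cells and 1.88 to 2.57 CPM in knockdown cells (log2 1.34, adjusted p = 0.000222, edgeR). Of 6 fibroblast markers 3 were analysed here, with sums of 9.79 to 13.1 and 17.5 to 18.4 CPM. Of 5 endothelial markers 4 were analysed here, with sums of 14.0 to 16.7 and 46.6 to 51.8 CPM that came mostly from CDH5, while PECAM1 had 0 to 10 counts. The part of these markers in the results was not tested.

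Summed over its genes, mitochondrial messenger RNA took a larger share of all counts in the knockdown and mitochondrial rRNA a smaller one. The 13 messenger RNAs were split, with 4 called higher and 3 lower, where 26.9% and 27.4% of all genes tested were. Within the messenger RNA pool, the shares of MT-CO1 and MT-CO3 grew most, by 2.05 and 1.96 percentage points. The shares are of library totals, and with that scaling the median log2 fold change of all genes tested was 0.038. Messenger RNA made up 2.72, 2.64 and 2.68% of the counts in the 3 control libraries, in replicate order, and 2.90, 2.93 and 2.997% in the 3 knockdown libraries. The groups did not overlap, and the means were 2.68 ± 0.041% and 2.94 ± 0.051% (SD, n = 3 each; exact permutation test, two-sided, p = 0.1, the smallest that 3 against 3 libraries allow). The rRNA share was 0.238, 0.231 and 0.232% in control cells and 0.194, 0.200 and 0.194% in knockdown cells, again without overlap (0.234 ± 0.0039% and 0.196 ± 0.0036%, SD, n = 3 each; exact p = 0.1, two-sided). For every 100 messenger RNA counts there were 8.75, 8.74 and 8.65 rRNA counts in the control libraries and 6.69, 6.83 and 6.48 in the knockdown libraries, a difference of −0.39 on the log2 scale (exact p = 0.1, two-sided), or −0.19 with MT-RNR2 as the only rRNA. In bulk RNA, fewer cells that carry an RNA and less of that RNA per cell cannot be told apart.

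The difference in rRNA counts lay mainly in the 12S rRNA. Since the selection of RNA for the libraries is not stated, a difference in the level of an rRNA and one in how it was captured or depleted cannot be told apart, and this holds for each rRNA value below. MT-RNR1 (ENSG00000211459, chrM:648-1601, plus strand, GRCh38.p13), the rRNA of the small ribosomal subunit, was at 699.8, 663.3 and 685.2 CPM in control cells and 351.4, 354.9 and 369.7 CPM in knockdown cells. All 3 knockdown libraries lay far below all 3 control libraries, and each group varied little, with a coefficient of variation of 2.69% and 2.72%. The means of 682.8 ± 18.4 and 358.7 ± 9.75 CPM (SD, n = 3 each) corresponded to −0.93 ± 0.024 on the log2 scale (SE; edgeR adjusted p = 1.03e-45), or 1.90-fold lower. Among the 2376 genes with a mean of at least 100 CPM, 20 were as low or lower in fold change, MT-RNR1 included, or 0.842%.

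MT-RNR2 (ENSG00000210082, chrM:1671-3229, plus strand), the rRNA of the large ribosomal subunit, was at 1713.6, 1673.9 and 1668.0 CPM in control cells and 1564.9, 1625.2 and 1554.7 CPM in knockdown cells. It fell by 0.09 on the log2 scale (SE 0.020; adjusted p = 6.43e-05, edgeR quasi-likelihood test), and the groups did not overlap. Its call was lost in the 3 fits of log2 FPKM (adjusted p of up to 0.0679), and its adjusted p ran from 1.58e-09 to 0.0679 over the alternatives. For every 100 MT-RNR2 counts there were 40.8, 39.6 and 41.1 MT-RNR1 counts in the 3 control libraries, in replicate order, and 22.5, 21.8 and 23.8 in the 3 knockdown libraries, or 40.5 ± 0.780 and 22.7 ± 0.994 (SD, n = 3 each). This ratio does not depend on how libraries are scaled. It was 0.84 lower on the log2 scale, and between 0.81 and 0.87 lower with any 1 library left out (exact p = 0.1, two-sided, the smallest possible; the ratio was chosen after its values were seen). Per length, the 12S rRNA stood at 66.2 ± 1.27 FPKM for every 100 FPKM of 16S rRNA in control cells and at 37.1 ± 1.62 in knockdown cells (SD, n = 3 each). The tRNA for valine, printed above in capitals, is the 69-base element that separates the pair.

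**Figure D1:**
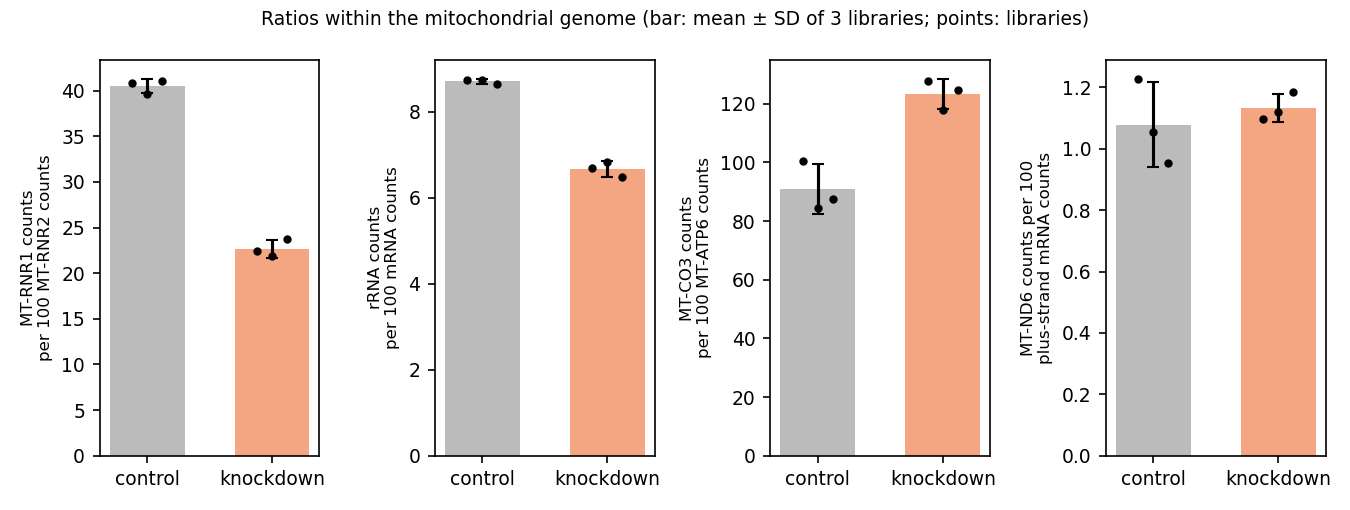
Counts of 1 mitochondrial RNA per 100 counts of another (y axes, linear, from 0) in control and knockdown; bars are means ± SD of 3 libraries and points are libraries. MT-RNR1 per 100 MT-RNR2 counts went from 40.5 to 22.7 and rRNA per 100 mRNA counts from 8.71 to 6.67, without overlap, while MT-ND6 per 100 plus-strand mRNA counts overlapped between the groups.

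Over all 15 genes, 4 passed the threshold as higher with knockdown and 5 as lower (adjusted p below 0.05 in edgeR), or 60%, where 54.2% of all 15374 genes tested were called. The share of mitochondrial genes called was therefore near that of all genes. Scaled to the mitochondrial messenger RNA pool, the split was 2 higher and 8 lower. By direction, 26.9% of all genes were called higher and 27.4% lower. The median log2 fold change was −0.01 over the 15 genes and 0.002 over all genes tested. The median absolute log2 fold change was 0.17 over the 15 genes and 0.26 over all genes. Both rRNAs were lower, and the 13 messenger RNAs were split, with 4 higher, 3 lower and 6 not past the test. The groups did not overlap for 10 of the 15 genes, where 58.9% of all genes tested did not overlap.

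**Figure D2:**
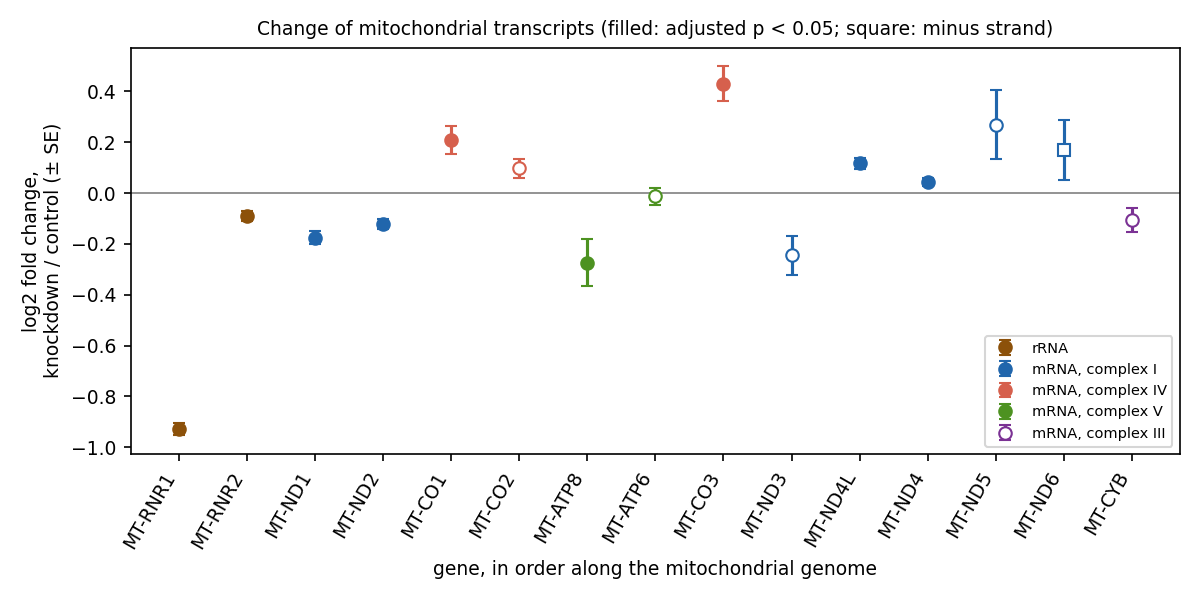
Log2 fold change of knockdown over control with its SE (y axis) for the 15 genes in order along the mitochondrial genome (x axis), coloured by respiratory complex or rRNA, filled where the adjusted p was under 0.05. MT-RNR1 at −0.93 stands apart from the other 14, which lie between −0.27 and 0.43.

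The 3 messenger RNAs of cytochrome c oxidase (complex IV), which passes electrons to oxygen, had positive fold changes, and 2 of them rose; relative to the mitochondrial messenger RNA pool MT-CO2 turned to −0.001. MT-CO3 (ENSG00000198938, chrM:9207-9990) was at 2182.5, 1893.2 and 2059.9 CPM in control cells and 2756.9, 2634.9 and 2880.7 CPM in knockdown cells. The lowest knockdown library lay well above the highest control library. It rose by 0.43 ± 0.068 on the log2 scale (SE; adjusted p = 0.0063, edgeR quasi-likelihood test), or 1.35-fold. Of the 2376 genes with a mean of at least 100 CPM, 7.11% had a fold change as high. MT-CO1 (ENSG00000198804, chrM:5904-7445), the catalytic subunit, was at 7493.9, 6690.2 and 6640.8 CPM in control cells and 7888.7, 8075.5 and 8104.6 CPM in knockdown cells. The groups did not overlap, but control replicate 1 lay nearer the knockdown than the other 2 control libraries did. MT-CO1 rose by 0.21 ± 0.057 (SE; adjusted p = 0.0366, edgeR quasi-likelihood test), and the call was kept in 1 of the 6 fits that leave out a library, the one without control replicate 1 (log2 0.26, adjusted p = 9.83e-20). In the other 5 it was lost, with an adjusted p of up to 0.111. MT-CO2 (ENSG00000198712, chrM:7586-8269), which takes electrons from cytochrome c, was at 3000.8, 3109.5 and 3329.5 CPM in control cells and 3337.1, 3341.9 and 3421.6 CPM in knockdown cells, so the nearest libraries of the groups were almost equal. Its log2 fold change of 0.10 did not pass (adjusted p = 0.0607, edgeR quasi-likelihood test). MT-CO2 was called in 9 of 17 alternatives, among them without control replicate 1 (log2 0.0609, adjusted p = 0.0165) and without control replicate 3 (log2 0.14, adjusted p = 5.73e-08).

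The 7 messenger RNAs of complex I, the NADH dehydrogenase, were split, with 2 that rose, 2 that fell and 3 that did not pass. MT-ND1 (ENSG00000198888, chrM:3307-4262) was at 654.0, 709.4 and 710.4 CPM in control cells and 607.9, 619.2 and 609.7 CPM in knockdown cells. The knockdown libraries were close together and below all control libraries, and MT-ND1 fell by 0.18 ± 0.024 on the log2 scale (SE; adjusted p = 8.4e-09, edgeR quasi-likelihood test). MT-ND2 (ENSG00000198763, chrM:4470-5511) was at 1846.4, 1915.9 and 1968.5 CPM and then at 1708.2, 1759.3 and 1799.2 CPM, and fell by 0.12 ± 0.021 (SE; adjusted p = 1.01e-06, edgeR). Here too the groups were separate, by about the spread within each. These 2 genes lie next to each other, downstream of the 16S rRNA. MT-ND3 (ENSG00000198840, chrM:10059-10404) was at 1023.4, 948.9 and 870.5 CPM in control cells and 794.2, 765.3 and 839.0 CPM in knockdown cells. Its groups did not overlap, but at −0.25 ± 0.076 (log2, SE) it did not pass (adjusted p = 0.0541, edgeR quasi-likelihood test). MT-ND3 was called in 8 of 17 alternatives, among them without control replicate 1 (log2 −0.19) and without control replicate 3 (log2 −0.31).

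MT-ND4L (ENSG00000212907, chrM:10470-10766) was at 897.4, 946.8 and 887.9 CPM in control cells and 970.1, 1006.9 and 986.9 CPM in knockdown cells, and rose by 0.12 ± 0.022 on the log2 scale (SE; adjusted p = 4.9e-06, edgeR quasi-likelihood test). Relative to the mitochondrial messenger RNA pool it was at 0.0189 and did not pass (adjusted p = 0.623, edgeR). MT-ND4 (ENSG00000198886, chrM:10760-12137), which shares its transcript and 7 bases with MT-ND4L, was at 4577.6, 4674.1 and 4771.6 CPM and at 4768.0, 4791.4 and 4896.7 CPM. Its groups overlapped, and its rise of 0.04 (SE 0.018; adjusted p = 0.03, edgeR) was the smallest called among the 15 and turned to −0.0547 relative to the mitochondrial messenger RNA pool. The MT-ND4 call was lost without control replicate 1 (log2 0.0253, adjusted p = 0.29, edgeR), without control replicate 2 (adjusted p = 0.0548), without knockdown replicate 3 (adjusted p = 0.215), with no filter on low counts (adjusted p = 0.0935) and in DESeq2 (adjusted p = 0.0943). MT-ND5 (ENSG00000198786, chrM:12337-14148) was at 1245.2, 958.7 and 928.3 CPM in control cells and 1198.5, 1270.9 and 1307.6 CPM in knockdown cells. Control replicate 1 lay inside the knockdown range and the other 2 control libraries well below it. With all libraries MT-ND5 did not pass (log2 0.27 ± 0.137 SE, adjusted p = 0.178, edgeR), and without control replicate 1 it did (log2 0.41, adjusted p = 1.16e-15), as in the 3 limma fits on FPKM (adjusted p = 0.0393 to 0.0484).

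MT-ND6 (ENSG00000198695, chrM:14149-14673, minus strand), the seventh complex I messenger RNA and the gene of the other strand, was at 334.6, 278.8 and 257.5 CPM in control cells and 311.1, 320.5 and 347.7 CPM in knockdown cells. The pattern was that of MT-ND5, whose 3′ end it adjoins on the opposite strand, with control replicate 1 inside the knockdown range. Its log2 fold change was 0.17 ± 0.119 (SE) and did not pass (adjusted p = 0.311, edgeR), and it was 0.28 without control replicate 1 (adjusted p = 0.000182). For every 100 counts of the 12 plus-strand messenger RNAs there were 1.23, 1.05 and 0.955 MT-ND6 counts in control cells and 1.10, 1.12 and 1.19 in knockdown cells. The groups overlapped, with a difference of 0.08 on the log2 scale (exact permutation test, two-sided, p = 0.5), and the difference lay between −0.01 and 0.18 with 1 library left out. A difference between the strands was therefore not detectable with these libraries. MT-ND6 also differs in sequence, with 35.6% G and 7.05% C, where the plus-strand messenger RNAs have 6.28 to 16.2% G and 29.5 to 36.0% C.

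Of the 3 messenger RNAs of complexes III and V, MT-ATP8 alone passed the test, as lower. MT-CYB (ENSG00000198727, chrM:14747-15887), cytochrome b of complex III, was at 2114.5, 2315.4 and 2380.3 CPM in control cells and 2100.0, 2104.1 and 2130.5 CPM in knockdown cells. Control replicate 1 again lay inside the knockdown range. Its log2 fold change of −0.10 did not pass (adjusted p = 0.126, edgeR quasi-likelihood test) and was −0.16 without control replicate 1 (adjusted p = 1.74e-09). MT-CYB was called in 5 of 17 alternatives. MT-ATP6 (ENSG00000198899, chrM:8527-9207), a membrane subunit of the ATP synthase, was at 2168.7, 2240.5 and 2354.7 CPM and at 2156.3, 2234.9 and 2311.9 CPM, with overlapping groups and a log2 fold change of −0.01 (adjusted p = 0.766, edgeR) whose sign depended on the scaling. MT-ATP8 (ENSG00000228253, chrM:8366-8572), another ATP synthase subunit and at 777 to 1176 counts per library the least counted of the 15, was at 47.1, 62.9 and 57.5 CPM and at 44.8, 46.8 and 47.1 CPM. Control replicate 1 lay almost level with the highest knockdown library, and control replicates 2 and 3 lay well above it. MT-ATP8 fell by 0.27 ± 0.091 on the log2 scale (SE; adjusted p = 0.0275, edgeR), and lost the call in 4 of the 6 fits that leave out a library (adjusted p of up to 0.131) and in the 3 limma fits on FPKM.

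**Figure D3:**
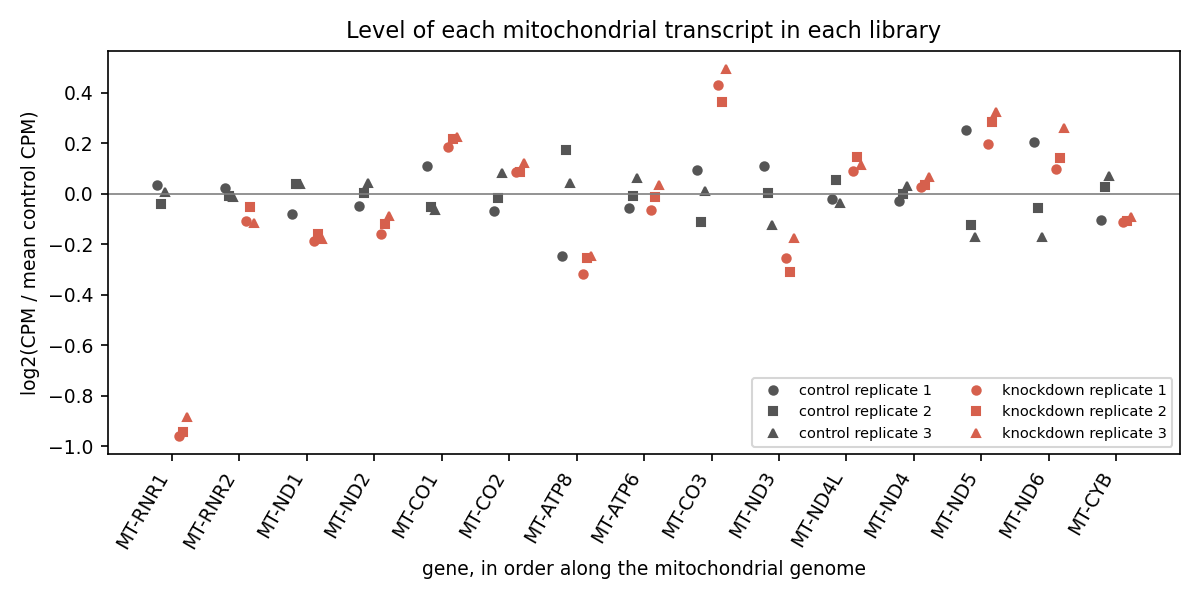
Log2 of CPM over the mean control CPM (y axis) for each of the 15 genes (x axis) in each library, with control in grey and knockdown in red and 1 symbol per replicate number. Control replicate 1 lies inside the knockdown range for MT-ND5, MT-ND6, MT-CYB and MT-ATP6 and apart from it for MT-RNR1.

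Control replicate 1 stood apart from the other control libraries in several of these messenger RNAs. It was the control library nearest the knockdown mean in 8 of the 15 genes and inside the knockdown range in 4, where control replicates 2 and 3 were inside it in 1 each. The coefficient of variation was larger in the control than in the knockdown for all 13 messenger RNAs, with a median of 6.11% against 2.60%, and in neither rRNA. Over the 2376 genes with a mean of at least 100 CPM the medians were 2.28% and 2.03%. Without control replicate 1, 6 of the 15 genes were called higher and 7 lower, with 50.1% of all genes called in that fit. Without control replicate 2 the counts were 2 and 5 (50.7% of all genes called), and without control replicate 3 they were 4 and 6 (50.5%). Without knockdown replicates 1, 2 and 3 in turn they were 3 and 4 (48.8%), 3 and 4 (49.4%), and 2 and 4 (48.8%). With all 6 libraries, 37.8% of all genes were called by DESeq2, 50% and 49.8% by limma on log2(FPKM + 1) and log2(FPKM + 0.1), 56.5% by limma at a mean FPKM of at least 1, 59.9% by edgeR at 1 CPM and 10 counts, 26% by edgeR with no filter on low counts, 54.3% with library totals only and 54% with the replicate block. The 6 genes called with any 1 library left out were MT-RNR1, MT-RNR2, MT-ND1, MT-ND2, MT-CO3 and MT-ND4L.

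The 3 junctions with no tRNA gene on either strand join genes that share precursor or mature RNA. Their counts were compared within a library, a choice made after the values were seen. MT-CO3 starts on the last base of MT-ATP6, as the sequence above shows, and the pair is cut apart without a tRNA between them. For every 100 MT-ATP6 counts there were 100.6, 84.5 and 87.5 MT-CO3 counts in control cells and 127.9, 117.9 and 124.6 in knockdown cells. The groups did not overlap and differed by 0.45 on the log2 scale, with 0.40 to 0.52 when 1 library was left out (exact p = 0.1, two-sided, the smallest possible). MT-ATP8 and MT-ATP6 overlap by 46 bases and stay together on 1 messenger RNA. Their counts stood at 2.17, 2.81 and 2.44 MT-ATP8 counts for every 100 MT-ATP6 counts in control cells and at 2.08, 2.10 and 2.04 in knockdown cells (log2 difference −0.25, exact p = 0.1, two-sided). With 1 library left out this difference lay between −0.34, without control replicate 1, and −0.15, without control replicate 2. How reads over shared bases were counted is not given, so this ratio is uncertain. MT-ND4L counts per 100 MT-ND4 counts were 19.6, 20.3 and 18.6 in control cells and 20.3, 21.0 and 20.2 in knockdown cells, with overlapping groups (exact p = 0.2, two-sided).

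Within the mitochondrial messenger RNA pool, complex IV had a larger share in the knockdown and each other complex a smaller one. Complex IV messenger RNAs made up 44.6 ± 1.18% of the pool in control cells and 48.6 ± 0.174% in knockdown cells (SD, n = 3 each), complex I 38.5 ± 0.434% and 36.3 ± 0.107%, complex III 8.36 ± 0.600% and 7.26 ± 0.0773%, and complex V 8.50 ± 0.426% and 7.84 ± 0.136%. None of these 4 shares overlapped between groups (exact p = 0.1 each, two-sided, the smallest possible), and since shares sum to a whole they are not independent. The share of MT-CO1 was 2.05 and that of MT-CO3 1.96 percentage points larger. The difference was −1.10 points for MT-CYB, −0.997 points for MT-ND2 and −0.738 points for MT-ND3. Not all members followed their complex. The difference was −0.0081 points for MT-CO2 of complex IV, and 0.489 for MT-ND5, 0.054 for MT-ND6 and 0.0441 for MT-ND4L of complex I. The groups overlapped in each of these. With the messenger RNA pool as the library size, 2 genes were called higher (MT-CO3 at 0.33 and MT-CO1 at 0.11 on the log2 scale) and 8 lower, with 55.5% of all genes called in that fit. On this scale MT-ND1 was at −0.27, MT-ND2 at −0.22 and MT-ATP6, which passed on no other, at −0.11. MT-RNR1 was at −1.03, MT-RNR2 at −0.19, MT-ND3 at −0.34 and MT-CYB at −0.20 (adjusted p = 1.09e-90, 1.58e-09, 6.92e-09 and 3.26e-07, edgeR).

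**Figure D4:**
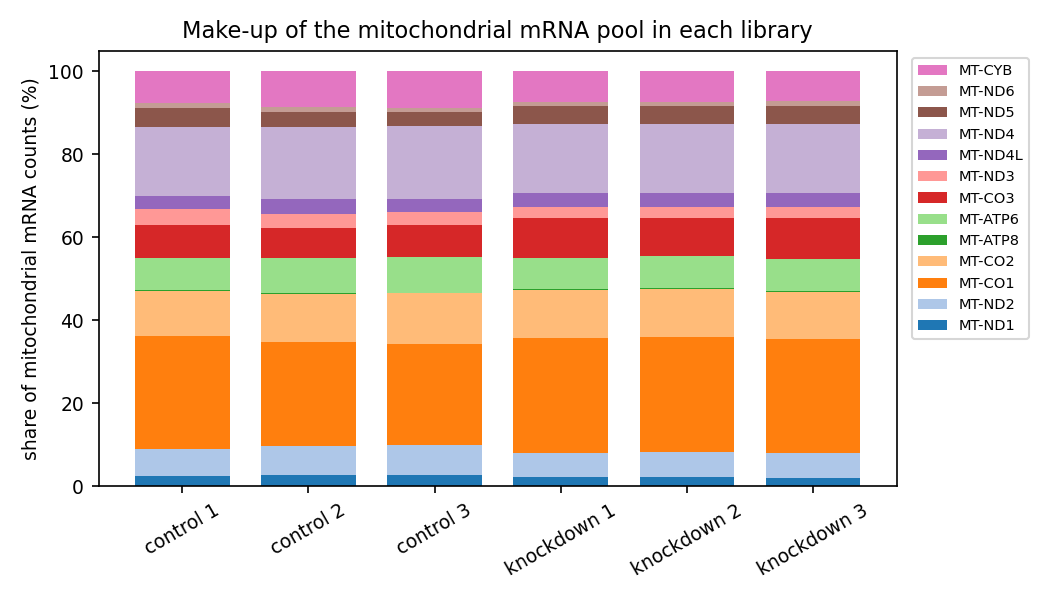
Share of each of the 13 messenger RNAs in all mitochondrial messenger RNA counts (y axis, percent) in each library (x axis). MT-CO1 is the largest part in each library, and MT-CO3 takes 7.08 to 7.91% in control cells and 9.10 to 9.70% in knockdown cells.

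Levels per length differed between messenger RNAs more than between groups. In FPKM (counts scaled by gene length and library size, the authors' values), the control order ran from MT-CO2 (4536 ± 242) and MT-CO1 (4439 ± 305), whose ranges overlapped, through MT-ND4 (3345 ± 69.9), MT-ATP6 (3264 ± 136), MT-ND4L (3023 ± 106), MT-ND3 (2700 ± 218) and MT-CO3 (2572 ± 182) to MT-CYB (1962 ± 120) and MT-ND2 (1808 ± 58.3; SD, n = 3 each). Far lower were MT-ND1 (713.0 ± 33.5), MT-ND5 (568.1 ± 95.0), MT-ND6 (545.2 ± 74.7) and MT-ATP8 (266.0 ± 38.2). Neighbours in this order overlapped in the control except at 5 steps, namely after MT-CO1, MT-ND4L, MT-CO3, MT-ND2 and MT-ND6. MT-CO3 had rank 3 in the knockdown (3554 ± 155 FPKM) and rank 7 in the control. Although MT-ATP8 and MT-ATP6 share a messenger RNA, their FPKM differed widely, so the level per length of MT-ATP8 is uncertain. Across the 12 plus-strand messenger RNAs, which share libraries, the fold change was weakly related to position from the 5′ side (Spearman rho = 0.273). The same held for gene length (rho = 0.448) and GC content (rho = 0.469), all given here as a description. Of the 6 messenger RNAs whose annotated length is no multiple of 3 bases, so that the last codon is completed by the poly(A) tail, 2 rose and 2 fell, and of the other 7, 2 rose and 1 fell.

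Copies of mitochondrial DNA in the nuclear genome can take reads from these genes. The table held 60 rows with mitochondrial pseudogene symbols, of which 54 had under 10 counts in every library, and all 60 together came to at most 0.956% of the mitochondrial counts. MTND2P28 on chromosome 1 (629640 to 630683) had 2242, 2682 and 2413 counts in control cells and 2149, 1933 and 1830 in knockdown cells, or 6.17 to 7.49 for every 100 MT-ND2 counts. It fell by 0.20 on the log2 scale (adjusted p = 0.000253, edgeR), in the direction of MT-ND2. MTATP6P1 (chromosome 1, 633696 to 634376) had 4.03 to 4.95 counts for every 100 MT-ATP6 counts, and MTCO1P12 (chromosome 1, 631074 to 632616) 0.180 to 0.287 for every 100 of MT-CO1, and neither passed. Adding each copy's counts to its gene changed the difference in MT-ND2 relative to nuclear counts from −0.083 to −0.088 on the log2 scale, in MT-ATP6 from 0.026 to 0.025, and left that in MT-CO1 at 0.25. MTND4P12 on chromosome 5 had 16 to 26 counts. MTRNR2L8, a nuclear 16S-like gene picked after its values were seen, had 5 to 19 counts per library.

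Nuclear genes that serve mitochondrial gene expression were called lower more often than higher. Of 101 tested genes in 8 lists, 51 fell and 5 rose, and 45 did not pass (edgeR quasi-likelihood test, Benjamini-Hochberg adjustment over all genes; 27.4% of all genes tested were called lower and 26.9% higher). The median log2 fold change was −0.13, beside 0.002 over all genes. No list was tested as a set, and the same shares over all genes stand beside the counts of each list below.

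Of 10 genes of mitochondrial transcription, 6 fell and none rose (median −0.23). The RNA polymerase POLRMT, which makes both precursors, went from 86.3 ± 6.15 CPM to 69.9 ± 3.52 CPM (SD, n = 3 each; log2 −0.30, adjusted p = 6.35e-08, edgeR). Its initiation factor TFB2M fell by 0.44, and TFAM, which packs mitochondrial DNA and bends it at promoters, from 132.2 ± 2.36 to 120.2 ± 6.21 CPM (log2 −0.14, adjusted p = 0.000913), a call lost in the 3 limma fits on FPKM (adjusted p = 0.0652 to 0.0723). The termination factor MTERF1, which binds downstream of the rRNA genes, fell by 0.37 and MTERF3 by 0.39. The ribosomal protein MRPL12, reported to bind POLRMT, fell by 0.33 and stood at −0.21 without control replicate 1 (adjusted p = 0.0203, edgeR). In transcript processing 2 of 10 fell and none rose (median −0.03). The enzyme ELAC2, which cuts tRNAs at their 3′ end, fell by 0.16 and the RNase P subunit HSD17B10 by 0.17. The RNase P subunit TRMT10C (−0.12, adjusted p = 0.138) and the CCA-adding enzyme TRNT1 (0.20, adjusted p = 0.0584) did not pass. TRMT10C ran from −0.04 without knockdown replicate 1 to −0.20 without control replicate 3, and it was called without control replicate 3 (adjusted p = 0.0254, edgeR) and without knockdown replicate 2 (adjusted p = 0.0473). TRNT1 was called in 6 alternatives, with adjusted p from 0.0248 to 0.0467. Nor did FASTKD5 (−0.08, adjusted p = 0.291), a factor for ends not formed by tRNA removal, picked after its value was seen.

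Of 11 genes of messenger RNA stability and polyadenylation, 8 fell and none rose (median −0.13). LRPPRC, which holds mitochondrial messenger RNAs stable, was at 311.5 ± 4.57 and 318.6 ± 6.22 CPM (log2 0.03, adjusted p = 0.298, edgeR, and called at 0.07 with library totals only), while its partner SLIRP fell from 66.0 ± 7.13 CPM to 46.8 ± 2.28 CPM (SD, n = 3 each; log2 −0.50, adjusted p = 1.69e-09). TACO1, a translational activator of MT-CO1, fell by 0.46, and NGRN, which acts on the 16S rRNA, and FASTKD3 by 0.21 each. Of 5 genes of RNA decay 4 fell (median −0.41). These were the exonuclease PNPT1 (−0.41) and its helicase partner SUPV3L1 (−0.21), which together degrade mitochondrial RNA, REXO2 (−0.47), which removes very short RNAs, and the nuclease ENDOG (−0.59).

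**Figure D5:**
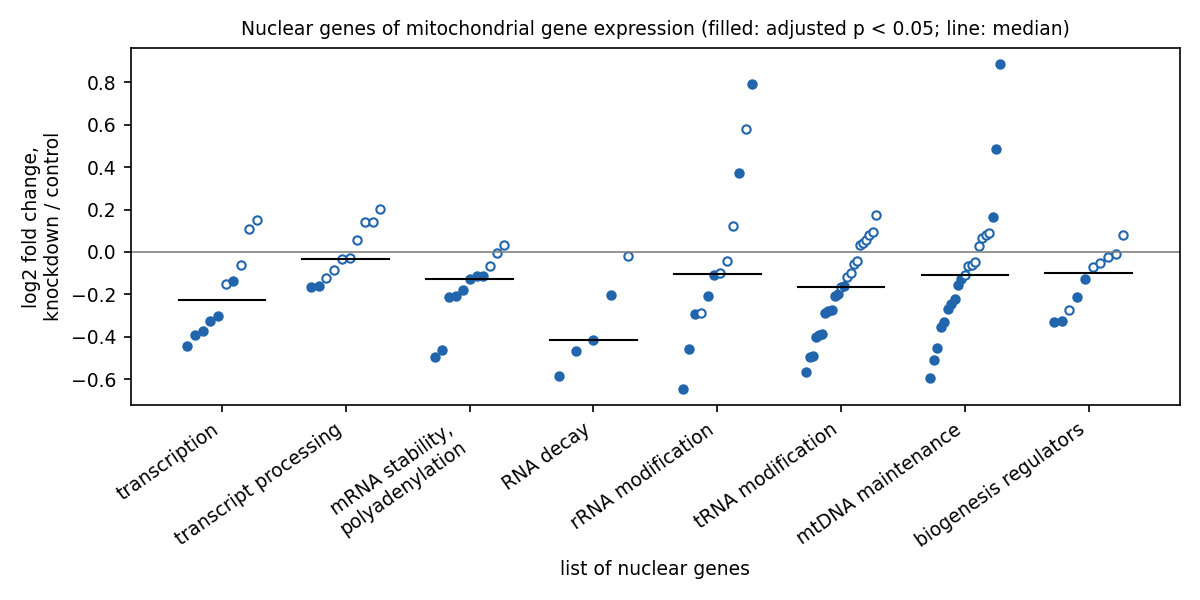
Log2 fold change (y axis) of each nuclear gene in 8 lists of mitochondrial gene expression (x axis), filled where the adjusted p was under 0.05, with the median of each list as a line. The medians lie between −0.41 for RNA decay and −0.03 for transcript processing.

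The rRNA list held 5 falls and 2 rises among 12 genes (median −0.10). ERAL1, a chaperone of the 12S rRNA in the small subunit, fell from 70.7 ± 2.20 CPM to 51.6 ± 0.541 CPM (SD, n = 3 each; log2 −0.46, adjusted p = 5.42e-13, edgeR). METTL15, which methylates the 12S rRNA, rose by 0.37 (adjusted p = 1.65e-07), and MRM1, a 16S rRNA methyltransferase, fell by 0.65. The 16S pseudouridine synthase RPUSD4 rose by 0.79. Other enzymes of the 12S rRNA, picked after their values were seen, did not pass, namely the dimethyltransferase TFB1M (0.15, adjusted p = 0.0988) of the transcription list and NSUN4 (0.12, adjusted p = 0.108). Genes named for proteins of the mitochondrial ribosome, also added after the data were seen, were mostly lower. They were grouped by symbol only, and a symbol does not always give the subunit. Of 29 genes with MRPS symbols 21 fell and none rose (median −0.22), and of 48 with MRPL symbols 30 fell and 3 rose (median −0.21). Over all genes tested, 27.4% were called lower and 26.9% higher. The medians of the 2 symbol families were close, unlike the fold changes of the 12S and 16S rRNAs.

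In tRNA modification 12 of 23 genes fell and none rose (median −0.16), among them NSUN2 (−0.29), TRMT1 (−0.39), QTRT2 (−0.39) and YRDC (−0.57), each of which serves tRNAs outside mitochondria as well. Of 21 genes of mitochondrial DNA maintenance, 10 fell and 3 rose (median −0.11). The DNA polymerase POLG went from 84.6 ± 3.03 CPM to 59.4 ± 4.13 CPM (SD, n = 3 each; log2 −0.51, adjusted p = 1.86e-15, edgeR), the helicase TWNK fell by 0.45, ATAD3B by 0.35 and MPV17, an inner membrane protein needed to keep mitochondrial DNA, by 0.59. Among 10 regulators of mitochondrial biogenesis 4 fell and none rose (median −0.10), namely ESRRA (−0.33), PPRC1 (−0.33), CREB1 (−0.21) and MYC (−0.13). The MYC call was lost in limma on log2(FPKM + 1) and log2(FPKM + 0.1) (adjusted p = 0.0534 and 0.0524).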

How the data were processed

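TRIzol-extracted total RNA went into libraries made by Illumina protocols, per the labels' protocols. For 30947 genes in 6 libraries the authors deposited unnormalized counts and, separately, FPKM. Bowtie and GRCh38.p13 appear in the submitters' processing notes without a stated role. How genes were counted, the annotation release, strandedness and RNA selection: not given in the sources used here. Columns were matched to samples by prefix and replicate number. The deposited FPKM values of the 15 mitochondrial genes implied the annotated gene lengths.

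Members are the rows with positions on the mitochondrial chromosome. Their coordinates equal those of GENCODE 29, the source of the sequences. Members and gene lists were chosen with earlier results of these data known. Counts were tested in R 4.3.3 with edgeR 4.0.16: filterByExpr (minimum count 10) kept 15374 genes, TMM factors ran from 0.9874 to 1.013, and glmQLFit (robust) with glmQLFTest used group as the only term, with Benjamini-Hochberg adjustment over all genes at 0.05. SEs were derived from the F statistic. The common biological coefficient of variation was 3.13%. Beside it, the median coefficient of variation among control libraries was 6.11% over the 13 mitochondrial messenger RNAs. Replicates differed beyond counting noise (chi-square per degree of freedom 1.86 to 2.78). The fit was tested on simulated data of 14802 genes. It recovered 50% of 1.15-fold changes and 100% of 1.5-fold changes, with 12 false calls. Every simulated gene had the common spread of 3.13%, and far fewer genes changed than were called in the real data. These figures may therefore not hold for mitochondrial genes with a larger spread. Changes below 1.15-fold were not simulated. Shares and ratios had exact permutation tests (scipy 1.17.1), which cannot go below 0.1.

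Named nuclear genes are the 4 with the smallest p per list, some required names (LRPPRC, SLIRP, TFAM, POLRMT, MTERF1), the 4 most counted nuclear copies and DAZAP1. Others are said to be picked after their values were seen. Alternatives were DESeq2 1.42.0, limma 3.58.1 on log2(FPKM + 1) and log2(FPKM + 0.1), other scalings and filters, the replicate block and each library left out.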

Additional observations from a re-analysis of the deposited data

How the results depend on the processing

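The counts of mitochondrial genes called changed most with the scaling and with single libraries. With the mitochondrial messenger RNA total as the library size they were 2 higher and 8 lower, in place of 4 and 5, and the median of all genes tested then lay at −0.095 on the log2 scale. With 1 library left out they ran from 2 to 6 higher and from 4 to 7 lower. MT-RNR1, MT-ND1, MT-ND2 and MT-CO3 were called in all 17 alternatives. Nuclear genes of mitochondrial gene expression called higher were 10 with library totals only and 9 with limma on log2(FPKM + 1) and on log2(FPKM + 0.1), in place of 5, and 4 to 6 with 1 library left out. Those called lower were 45 with library totals only, 46 in DESeq2 and 42 to 44 in the limma fits on FPKM, in place of 51. With 1 library left out they were 48 to 51. The cause of these changes was not tested. Among the mitochondrial genes and their nuclear copies, these signs turned: MT-ATP6 was at 0.0227 with library totals only and with limma on FPKM in its 3 forms, and from −0.044 to 0.016 with 1 library left out (0.016 without control replicate 3 and 0.0113 without knockdown replicate 1), MT-CO2 at −0.001 and MT-ND4 at −0.0547 relative to the messenger RNA pool, and MTATP6P1 at 0.0072 with library totals only, from −0.082 to 0.0545 with 1 library left out (0.0545 without control replicate 2) and 0.0116 to 0.0117 with limma on FPKM. The ratio of MT-ND6 to plus-strand messenger RNAs lay between −0.0051 (without control replicate 3) and 0.18 (log2) with 1 library left out. The log2 change of the messenger RNA share lay between 0.12 and 0.14 with 1 library left out, that of the rRNA share between −0.27 and −0.24, and that of the rRNA to messenger RNA ratio between −0.40 and −0.37. Replicate numbers are shared between the groups, but same-numbered libraries did not deviate together (correlations of 0.0049, −0.0028 and −0.0042 over 15374 genes), so they share only a number. With the replicate number as a block, 4 genes were higher and 6 lower (MT-CO1 lost its call, and MT-CO2 and MT-CYB gained one), nuclear genes of mitochondrial gene expression were 5 and 52, and the rRNA to messenger RNA difference was −0.39 (exact sign-flip p = 0.25, the smallest possible). Alternatives that needed tRNAs, in the class shares and the strand ratio, were not run. Depth limits MT-ATP8 most, at 777 to 1176 counts per library.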
